A study of Mus musculus with 16 samples.

Results

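Spp2, Ttr, Dnase1, Inmt, Miox and Slc13a3 (in the deposited table SPP2, TTR, DNASE1, INMT, MIOX and SLC13A3) are genes of the kidney tubule whose transcripts were low in obstructed kidneys of mice without IL-33. They were selected on the measured fold change after obstruction: the study's own list of genes that differ between IL-33-deficient and wild type kidneys after obstruction holds them with large falls, and they are neither organic ion transporters of solute carrier family 22 nor cytochromes P450. These 6 genes were measured among 18132 genes on 16 arrays, 1 array for each kidney. The genotype difference after obstruction therefore chose the genes, and it is given below as a description with no test.

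The mice were wild type (WT) or lacked Il33 (IL-33 KO), on the C57BL/6 background, the deficient strain having been backcrossed to C57BL/6J BomTac mice. Unilateral ureteral obstruction (UUO) means that a clip closed 1 ureter, and the kidney was taken 24 h later. Of the kidneys after UUO, 7 were WT (3 of set 1 and 4 of set 2) and 5 were IL-33 KO (2 of set 1 and 3 of set 2), where a set is a number in the sample labels that is not explained there. The controls were 2 WT and 2 IL-33 KO kidneys, for which the labels give neither a set nor a sham operation, so effects of surgery or of the set cannot be told apart from those of the obstruction. The general methods give an age of 8 weeks and state no sex for these mice. The arrays gave the female transcript Xist between 6.81 and 6.96 on the log2 scale, near the background, in all 16 kidneys. The Y-chromosome transcripts Ddx3y and Eif2s3y lay between 8.46 and 9.02 and between 8.52 and 9.38 in all 16, the pattern of male mice. Jarid1d and Uty, also of the Y chromosome, were nearer the background, at means of 7.35 and 7.36 in WT controls. Il33 itself lay between 6.80 and 7.02 in all IL-33 KO kidneys, at 7.62 and 8.02 in the WT controls, and between 8.39 and 9.57 in the WT kidneys after UUO. The study used fewer WT kidneys in its contrast than the 7 labelled here, and which ones is not given in the sources used here, so all 12 UUO kidneys are treated as having taken part in the choice.

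The proximal tubule reabsorbs most of what the glomerulus filters, and its cells carry many transporters, enzymes of intermediate metabolism and a few secreted proteins that the liver also makes. After a ureter is closed, tubule cells lose many of these transcripts and turn on injury genes such as Havcr1, which encodes KIM-1, and Lcn2. Transcription factors of the HNF1 and HNF4 families maintain the differentiated state of proximal tubule cells and of hepatocytes. IL-33 is a cytokine of the IL-1 family that is stored in cell nuclei and acts on cells with the receptor ST2.

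The stretches before their start sites are shown with the letters that the tubule factors are known to bind. The sequences are RefSeq windows of GRCm38.p6, written 5′ to 3′ on the strand of the gene and ending at the last base before the annotated gene. Capitals mark GTTAAT or its complement ATTAAC, which is an arm of the HNF1 site, CAAAG or CTTTG, which is an arm of the HNF4 site, and TATAAA or TTTATA, the TATA box. All 6 symbols were found in RefSeq, and the window of Ttr is not printed here.
Spp2, chr1:88406760-88406965, plus strand: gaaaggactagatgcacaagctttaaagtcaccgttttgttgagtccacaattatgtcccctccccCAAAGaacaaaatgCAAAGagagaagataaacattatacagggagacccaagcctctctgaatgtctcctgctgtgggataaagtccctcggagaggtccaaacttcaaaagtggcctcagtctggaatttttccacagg
Dnase1, chr16:4036786-4036957, plus strand: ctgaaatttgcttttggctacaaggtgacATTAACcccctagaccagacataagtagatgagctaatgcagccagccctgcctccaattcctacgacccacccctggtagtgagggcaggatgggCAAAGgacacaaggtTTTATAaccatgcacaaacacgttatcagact
Inmt, chr6:55174991-55175240, minus strand: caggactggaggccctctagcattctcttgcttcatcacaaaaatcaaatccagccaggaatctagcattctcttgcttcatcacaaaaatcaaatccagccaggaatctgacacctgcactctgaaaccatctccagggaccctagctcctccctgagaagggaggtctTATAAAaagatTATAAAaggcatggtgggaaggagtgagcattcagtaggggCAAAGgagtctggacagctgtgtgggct
Miox, chr15:89334223-89334472, plus strand: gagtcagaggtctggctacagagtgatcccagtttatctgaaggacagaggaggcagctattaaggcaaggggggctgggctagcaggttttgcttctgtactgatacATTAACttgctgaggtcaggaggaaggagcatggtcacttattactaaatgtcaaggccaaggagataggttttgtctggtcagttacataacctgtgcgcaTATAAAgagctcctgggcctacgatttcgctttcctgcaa
Slc13a3, chr2:165473198-165473447, minus strand: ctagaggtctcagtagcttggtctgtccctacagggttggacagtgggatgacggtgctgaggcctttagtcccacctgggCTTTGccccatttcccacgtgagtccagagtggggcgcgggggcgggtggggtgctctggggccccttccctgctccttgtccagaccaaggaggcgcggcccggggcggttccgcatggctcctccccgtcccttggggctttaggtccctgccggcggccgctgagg

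The HNF4 letters were found in 4 of the 5 windows (Spp2, Dnase1, Inmt and Slc13a3), the TATA box in 3 (Dnase1, Inmt and Miox) and the HNF1 letters in 2 (Dnase1 and Miox). Of 27025 genes with a RefSeq window of 250 bases, 48.8% held the HNF4 letters, 13% the TATA box and 6.52% the HNF1 letters on either strand. For the first 172 bases of each window, the length printed for Dnase1, those shares were 38.4%, 8.44% and 4.67%. This stretch leaves out the last of the 250 bases, so its place before the start site may differ from that of the printed window. For the TATA box, the share at 172 bases is therefore not a like comparison. A match describes the letters alone, and no binding was measured here, so a part of these factors in the values below was not tested.

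Of 14 measured genes listed for the proximal tubule, the means in WT control kidneys ran from 6.77 for Slc7a13 to 14.25 for Slc34a1. The median over all genes of an array was 7.05. Fbp1, a gluconeogenic enzyme of the proximal tubule, was at 12.61, while Slc4a4 of the same list was at 6.91, near the background. Values are log2 intensities unless a percentage or a summed (linear) intensity is named, and the lowest values near 7 are background rather than a true zero, so that falls of dim genes are compressed. Of the WT kidneys after UUO, 3820 had the lowest level of the injury gene Havcr1, which stood at 10.42 there and between 12.84 and 13.95 in the other UUO kidneys of both genotypes, while the controls lay between 7.07 and 7.37. The WT kidney 3818 carried transcripts of liver. Its Mup1, a urinary protein made by hepatocytes, was at 12.05 against 6.77 to 6.96 in the other 15 kidneys, and 23 genes were higher there by a log2 of 1 or more than in any other kidney. Of 16 listed liver genes, 10 were highest in 3818, 5 of them by a log2 of 1 or more. Tat at 6.80 and Cyp3a11 at 6.93 were among the 10 but near the background. Alb, which encodes albumin, was near the background there at 6.79. The summed intensity of the list was 14618 to 41126 in the WT UUO kidneys and 30697 to 35388 in the IL-33 KO ones. Fga and Fgg of this list rose after UUO over both genotypes, by 4.10 and 5.21. The sum therefore does not measure liver content alone. Cfd, which encodes adipsin of adipose tissue, was at 9.20 in 3818 and at 8.79 in the IL-33 KO kidney 3822, against 6.96 to 7.28 in the other 14, and the summed intensity of 5 adipose genes was 603 to 1095 in WT and 596 to 938 in IL-33 KO kidneys after UUO. Spp2 and Ttr are liver genes too, so results are given below with and without the 2 WT kidneys 3818 and 3820. The part of liver and adipose transcripts in each result was not tested otherwise.

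All 6 genes were lower after UUO. Over both genotypes, 12 UUO kidneys against 4 controls, the log2 changes ran from -1.35 for Slc13a3 to -4.26 for Inmt, and each passed an adjusted p of 0.05 in limma (6 of 6, where 14.5% of all genes were called lower and 13.5% higher). The UUO kidneys in this test include the 5 IL-33 KO kidneys whose low values chose the genes, so it is not independent of the choice, and the share over all genes is given as background alone. In control kidneys none of the 6 passed a test of genotype, and after UUO the IL-33 KO kidneys stood below the WT kidneys, with log2 differences of -1.03 to -1.47, which are the differences the genes were chosen for. The same 6 were called lower under each of the 25 other settings tried, and with set 1 or set 2 of the UUO kidneys alone.

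**Figure D1:**
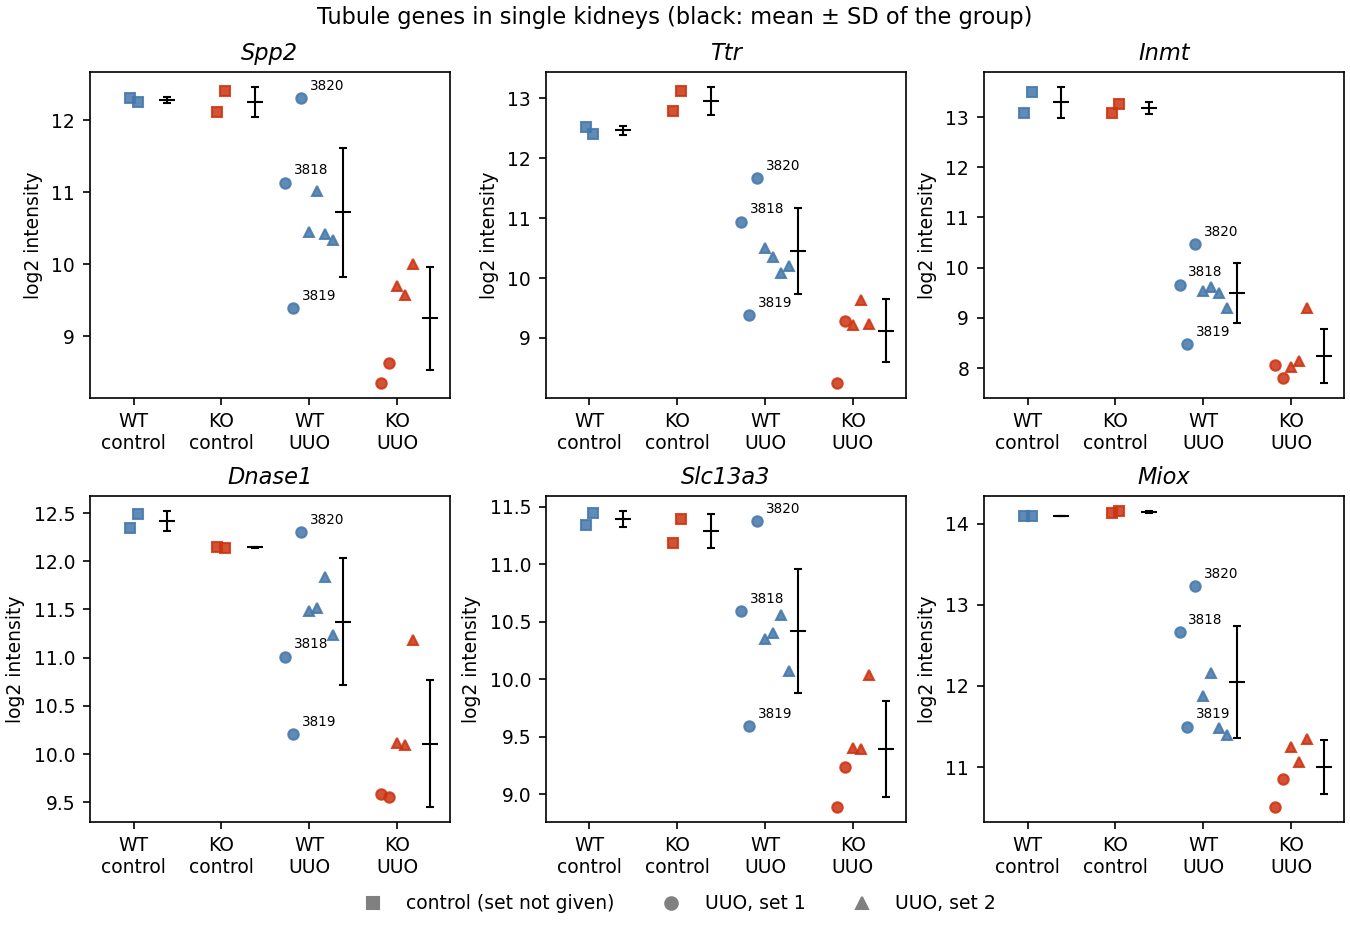
Log2 intensity of each of the 6 genes (vertical axis) in single kidneys of the 4 groups (horizontal axis), with squares for controls, circles for set 1 and triangles for set 2, and the group mean ± SD in black beside them. The controls of both genotypes lie together at the top, and the WT kidney 3820 reaches the control level for Spp2, Dnase1 and Slc13a3, at 12.31, 12.30 and 11.37.

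Among the secreted proteins, Spp2 encodes secreted phosphoprotein 24, a relative of the cystatins that binds bone morphogenetic proteins. It measured 12.31 and 12.25 in the WT controls and 12.11 and 12.40 in the IL-33 KO controls. After UUO the WT kidneys had a lowest value of 9.39, a median of 10.44 and a highest of 12.31, and the IL-33 KO kidneys gave 8.35 and 8.63 in set 1 and 9.69, 9.57 and 10 in set 2. Every UUO kidney but WT 3820 thus lay below every control, and the IL-33 KO values of set 1 lay apart below those of set 2. Over both genotypes Spp2 fell by 2.16 (standard error 0.40, adjusted p = 6.5e-04, limma), to 22.3% of the controls, and the exact two-sided permutation test over kidneys gave p = 0.0033. Without WT 3818 the log2 change was -2.25, and without both 3818 and 3820 it was -2.48 (adjusted p = 1.1e-05, limma).

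Ttr encodes transthyretin, the carrier of thyroxine and of the retinol-binding protein, which the choroid plexus and the liver secrete in large amounts. It stood at 12.52 and 12.41 in the WT controls and at 12.79 and 13.12 in the IL-33 KO controls. The WT kidneys after UUO ran from 9.38 through a median of 10.35 to 11.67, and those without IL-33 were at 8.25, 9.28, 9.21, 9.64 and 9.24. No UUO kidney reached a control, and the IL-33 KO kidney 3898 was above the lowest WT kidney, 3819. Over both genotypes Ttr fell by 2.82 (standard error 0.31, adjusted p = 9.2e-06, limma), to 14.2% of the controls, and the permutation p of 5.5e-04 was the smallest the exact test can give over 1820 splits. With 3818 left out it was -2.91, and with both left out -3.10 (adjusted p = 6.0e-08, limma).

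Dnase1 encodes a main secreted endonuclease of urine, which degrades free DNA. Its values were 12.34 and 12.49 in the WT controls and 12.15 and 12.14 in the IL-33 KO controls. After UUO the WT kidneys spanned 10.21 to 12.30 with a median of 11.48, and the IL-33 KO kidneys measured 9.59, 9.56, 10.12, 10.09 and 11.18. The highest of those, in kidney 3899, was above 2 WT kidneys, 3818 and 3819, and WT 3820 again overlapped the controls. Dnase1 fell by 1.43 over both genotypes (standard error 0.31, adjusted p = 0.00258, limma), to 37% of the controls, with an exact permutation p of 0.00824.

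Of the enzymes, Inmt encodes indolethylamine N-methyltransferase, which methylates tryptamine and thioethers. It measured 13.08 and 13.51 in the WT controls and 13.09 and 13.26 in the IL-33 KO controls. In WT kidneys after UUO it lay between 8.48 and 10.47 with a median of 9.53, and in IL-33 KO kidneys it was 8.06, 7.81, 8.03, 8.14 and 9.19. Inmt showed the widest gap between UUO and control kidneys of the 6 genes, with all kidneys after UUO far below every control, and 4 of the 5 IL-33 KO values close together. It fell by 4.26 (standard error 0.28, adjusted p = 1.5e-07, limma), to 5.21% of the controls, the second largest fall of all 18132 genes. The exact permutation test gave its smallest p, 5.5e-04.

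Miox encodes myo-inositol oxygenase, a nearly kidney-restricted enzyme that opens the inositol ring to form glucuronate. It was at 14.09 in both WT controls and at 14.13 and 14.15 in the IL-33 KO controls. The WT kidneys after UUO ran from 11.40 to 13.23 with a median of 11.88, and the IL-33 KO kidneys were at 10.51, 10.85, 11.25, 11.06 and 11.35. Miox was the 1 gene of the 6 in which every IL-33 KO kidney lay below every WT kidney after UUO, by a narrow margin in set 2. It fell by 2.51 (standard error 0.27, adjusted p = 8.7e-06, limma), to 17.6% of the controls, again with the smallest exact permutation p of 5.5e-04.

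Slc13a3 encodes NaDC3, the sodium-coupled dicarboxylate carrier of the basolateral membrane that supplies the tubule with citric acid cycle intermediates. It stood at 11.34 and 11.44 in the WT controls and at 11.18 and 11.39 in the IL-33 KO controls. After UUO it ran from 9.59 through 10.40 to 11.37 in WT kidneys and measured 8.89, 9.24, 9.40, 9.39 and 10.04 in IL-33 KO kidneys. WT 3820 was within the range of the controls, and the IL-33 KO kidney 3899 was above WT 3819. Slc13a3 fell by 1.35 (standard error 0.24, adjusted p = 5.0e-04, limma), to 39.3% of the controls, with an exact permutation p of 0.00385. In whole kidneys, fewer tubule cells and less RNA in each of them cannot be told apart, for this gene and for the other 5.

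Of the 6 genes, 3 (Ttr, Inmt and Miox) had every UUO kidney below every control, which held for 6.47% of all genes. For Spp2, Dnase1 and Slc13a3, WT 3820 was the only UUO kidney that reached the controls. Setting it aside therefore made the count 6 of 6 of necessity, where 8.6% of all genes had such a gap. The UUO kidneys include the IL-33 KO kidneys that chose the genes, so both shares over all genes are background alone. By the size of the fall over both genotypes, Inmt, Ttr, Miox and Spp2 were ranked 2, 9, 12 and 18 of all genes, and Dnase1 and Slc13a3 were ranked 85 and 104.

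In WT kidneys taken alone, 7 UUO against 2 controls, the question is whether the genes fell where IL-33 was present. These UUO kidneys also took part in the contrast that chose the genes. Inmt changed by -3.80 (standard error 0.39, limma, adjusted p = 4.3e-05), Miox by -2.05 (0.38, adjusted p = 0.00232) and Ttr by -2.02 (0.43, adjusted p = 0.00568). Spp2 had a change of -1.56 (standard error 0.55, adjusted p = 0.0734), Dnase1 one of -1.04 (0.44, adjusted p = 0.14) and Slc13a3 one of -0.97 (0.33, adjusted p = 0.0636), which did not pass. That is 3 of 6, where 8.22% of all genes were called lower. These calls depended on single kidneys and on the settings. Without WT 3820 all 6 passed, Spp2 at -1.83 (limma, adjusted p = 0.00768), Dnase1 at -1.19 (adjusted p = 0.0491) and Slc13a3 at -1.13 (adjusted p = 0.00639). With WT 3820 kept, Spp2 (limma, adjusted p = 0.0369) and Slc13a3 (adjusted p = 0.0323) passed among the brighter genes, 5 of the 6 passed with a trend of the prior variance and 6 with array weights. Without both 3818 and 3820, 5 passed and Dnase1 did not (limma, adjusted p = 0.0614). The count over all genes moved with the settings too. Called lower were 1491 genes with all kidneys, 1866 without WT 3820 and 2110 without both 3818 and 3820. With all kidneys kept, 1554 were called lower among the brighter genes, 1380 with the trend and 2102 with array weights. The call of Ttr was lost without either WT control, its adjusted p being 0.0726 without 3811 and 0.0656 without 3812, so that 2 genes passed then.

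The IL-33 KO kidneys, 5 UUO against 2 controls, had changes of -4.93 for Inmt, -3.83 for Ttr, -3.13 for Miox, -3.01 for Spp2, -2.04 for Dnase1 and -1.89 for Slc13a3. The change was the deeper one in IL-33 KO kidneys for each gene, with a log2 difference between the responses of -1.81 for Ttr, -1.44 for Spp2, -1.12 for Inmt, -1.09 for Miox, -1.0 for Dnase1 and -0.92 for Slc13a3. Since the UUO kidneys that give these differences chose the genes, no test is attached to them.

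**Figure D2:**
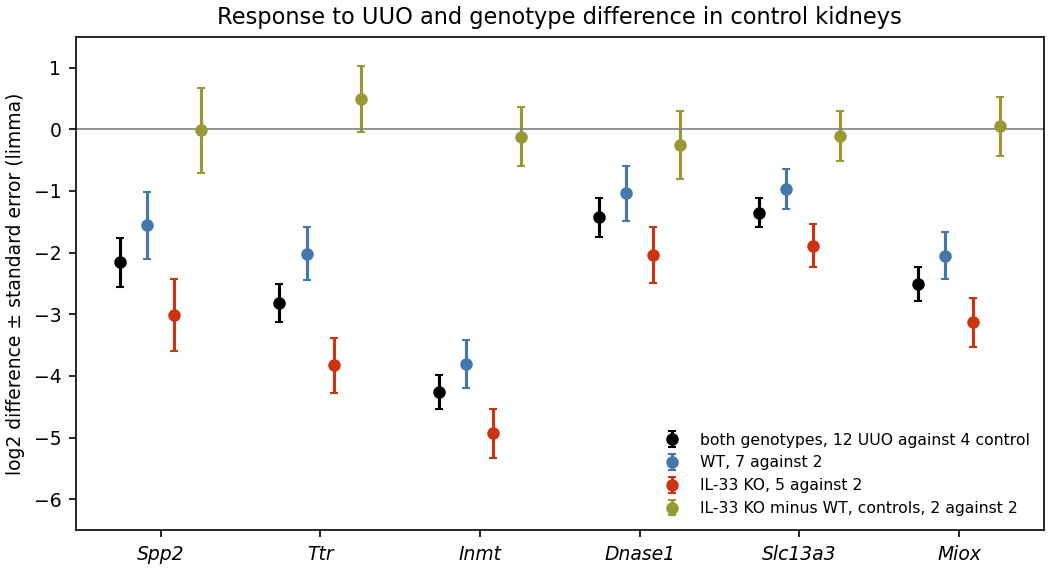
Log2 difference with its standard error from limma (vertical axis) for each gene (horizontal axis), for UUO against control in both genotypes, in WT and in IL-33 KO kidneys, and for IL-33 KO minus WT in control kidneys. All responses to UUO lie below 0, from -0.97 to -4.93, and all differences between control kidneys lie within 1 standard error of 0.

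The control kidneys took no part in the choice, and they show whether the genes differed by genotype before obstruction. IL-33 KO minus WT was 0.49 for Ttr (standard error 0.54), 0.05 for Miox (0.48), -0.02 for Spp2 (0.69), -0.11 for Slc13a3 (0.41), -0.12 for Inmt (0.48) and -0.26 for Dnase1 (0.55). None passed the test, with an adjusted p of 1 for each in limma, where 0% of all genes were called in either direction and 3.66% had an unadjusted p under 0.05. The 95% intervals were wide with 2 kidneys a group: from -0.69 to 1.67 for Ttr, -1.52 to 1.48 for Spp2 and -0.99 to 1.08 for Miox. They ran from -1.45 to 0.92 for Dnase1, -1.17 to 0.93 for Inmt and -1.01 to 0.79 for Slc13a3, so differences as large as those after UUO were within reach for Spp2, Dnase1 and, nearly, for Inmt, Slc13a3 and Miox. An exact permutation test of 2 against 2 kidneys cannot go below 0.333. Both IL-33 KO controls were above both WT controls for Ttr and Miox and below them for Dnase1. For each of these genes, 2 of the 6 possible splits of the controls lay as far apart (exact permutation p = 0.333). The order alone therefore shows no genotype difference, and its share over all genes was not counted.

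After UUO, in 5 IL-33 KO against 7 WT kidneys, the differences that chose the genes were -1.47 for Spp2 (standard error 0.44), -1.32 for Ttr (0.34), -1.26 for Dnase1 (0.35), -1.24 for Inmt (0.30), -1.04 for Miox (0.30) and -1.03 for Slc13a3 (0.26). Each IL-33 KO mean was between 36.2% and 49% of the WT mean. All 6 were among the 18 genes (0.0993% of all) that were lower by a log2 of 1 or more, at places 3 to 16. At the study's own threshold 0.00552% of all genes were called lower, 1 gene, which was Il33, so none of the 6 was among those called. The study applied that threshold to probes and to fewer WT kidneys and called many more, so its count and this one are not alike. Counted in either direction, the genes called ran from 0 to 307 under the other settings tried. Because the genotype difference after UUO chose the 6 genes, none of these counts is a test of them. Without overlap between the genotypes stood 1 of the 6, Miox, against 0.336% of all genes.

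The spread among kidneys was wide beside these differences. WT 3820 was the highest WT kidney for all 6 genes, and 3819 was the lowest for all but Miox, where 3895 was. For Spp2, all 3 IL-33 KO kidneys of set 2 were above WT 3819. Taken as a percentage of the controls of the same genotype, the median over the 6 genes was 73.1 in WT 3820, 37.5 in 3818 and 14.9 in 3819, and between 22.9 and 32.9 in the 4 WT kidneys of set 2. In IL-33 KO kidneys it was 7.33 and 9.11 in set 1 and 15.1, 13.6 and 17.4 in set 2. The WT kidney 3819 thus lay within the range of the IL-33 KO kidneys of set 2, and the other 6 WT kidneys lay above it.

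**Figure D3:**
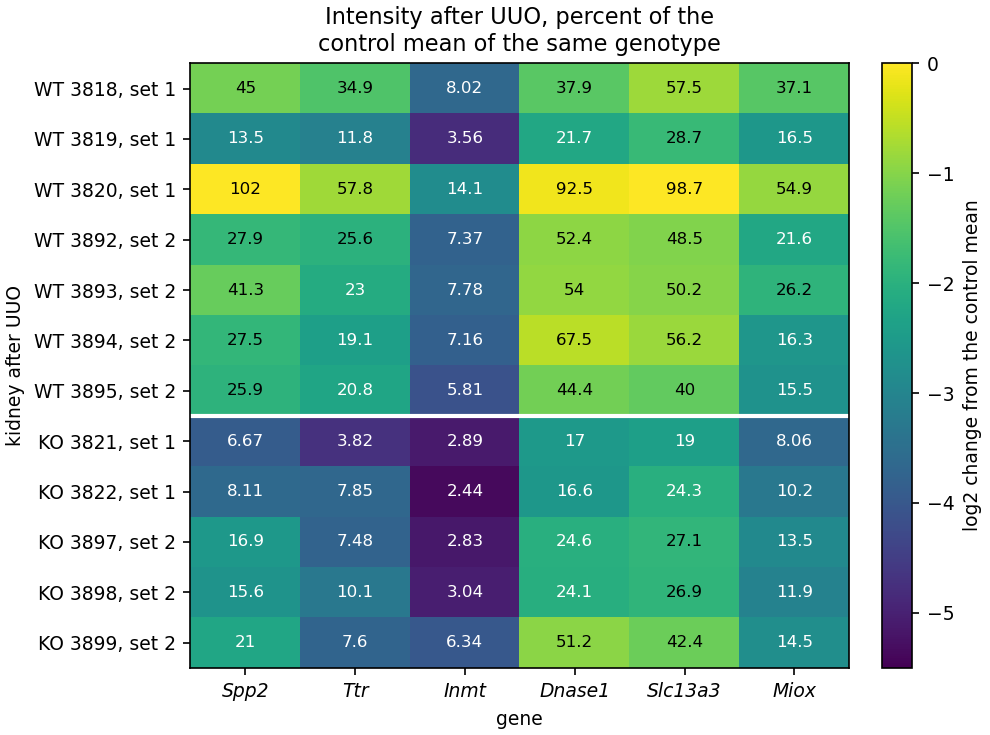
Intensity of each gene (columns) in each UUO kidney (rows) as a percentage of the control mean of its genotype, printed in the cell and coloured by the log2 change, with the IL-33 KO kidneys under the white line. Inmt is low in every row, from 2.44 to 14.1, and the row of WT 3820 is high in every column but that of Inmt, where it is still the highest.

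Among the WT kidneys after UUO, the injury gene Havcr1 was low where the 6 genes were high. It was 10.42 in WT 3820 and 12.84 in 3818, the WT kidneys with the highest median of the 6 genes. In WT 3819, the one with the lowest, it was 13.95. The IL-33 KO kidneys lay close together for Havcr1, between 13.61 and 13.87, while their median of the 6 genes ran from 7.33% to 17.4% of the controls. All 9 measured genes of a list of tubule injury were higher after UUO, and their summed intensity was 24517 to 53167 in WT and 42652 to 53695 in IL-33 KO kidneys. Of 7 fibroblast genes, among them Col1a1 and Acta2, 7 were higher in IL-33 KO than in WT kidneys after UUO, by a median of 0.50 on the log2 scale, and by 0.38 without 3818 and 3820, where 9407 of all 18132 genes were higher and their median was 0.00. The summed intensity of the list was 5164 to 6010 in IL-33 KO and 2983 to 4715 in WT kidneys. The brightest gene of the list, Acta2, weighed most in these sums, at means of 10.54 in WT and 11.21 in IL-33 KO kidneys. How many of all genes had every IL-33 KO kidney above every WT kidney was not counted. The study had already reported Col1a1, Col3a1 and Acta2 of this list as higher in its own contrast of these genotypes after UUO. The count and the sums are therefore not independent of that report. The part of injury or of fibroblast content in the genotype difference of the 6 genes was not tested.

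As measured, the genotype difference after UUO was larger in set 1 than in set 2. In set 1, 2 IL-33 KO against 3 WT kidneys, it was -2.45 for Spp2, -1.90 for Ttr, -1.78 for Miox, -1.60 for Inmt, -1.60 for Dnase1 and -1.46 for Slc13a3. In set 2, 3 against 4 kidneys, it was -0.79 for Spp2, -0.92 for Ttr, -0.51 for Miox, -1.0 for Inmt, -1.06 for Dnase1 and -0.74 for Slc13a3. The values of the sets differed by 1.66 for Spp2 and 1.28 for Miox and by 0.54 to 0.99 for the other 4. These kidneys chose the genes, so no test is attached to these values either.
The size and, for 4 genes, the direction of this difference depended on which WT kidneys of set 1 were used. Without WT 3819, which leaves 3818 and 3820 alone for WT set 1, the values of the sets differed by 2.43 for Spp2 and 1.76 for Miox. With 3818 and 3820 left out in its place, they differed by 0.11 for Spp2 and 0.31 for Miox, and the direction turned for the other 4, at -0.30 for Ttr, -0.46 for Inmt, -0.43 for Dnase1 and -0.21 for Slc13a3.

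**Figure D4:**
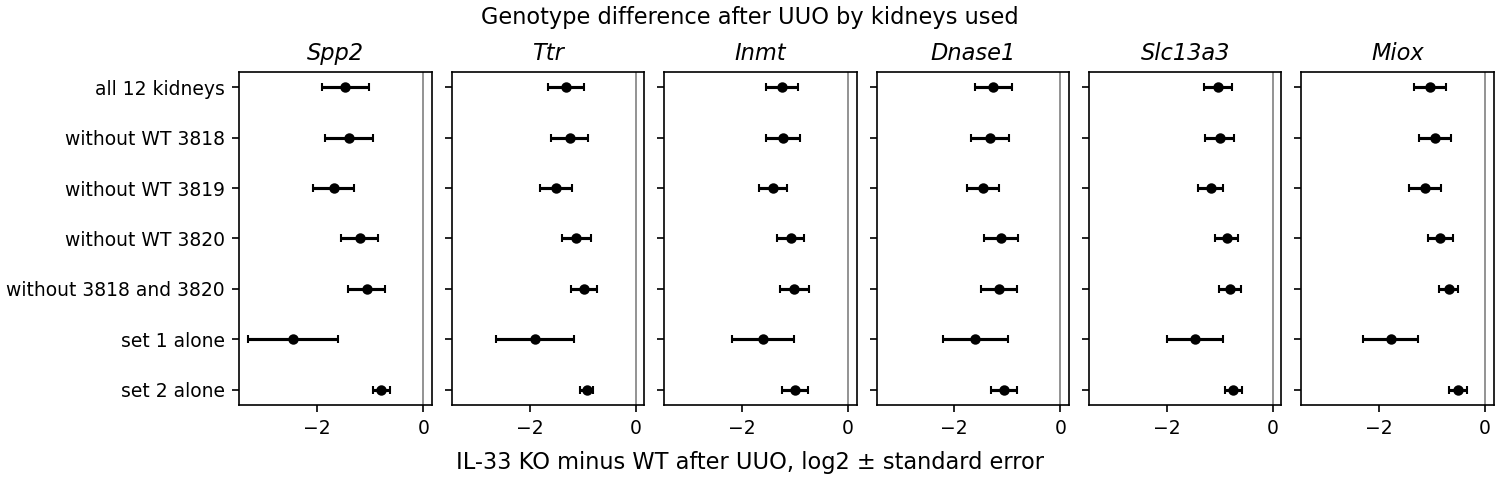
IL-33 KO minus WT after UUO on the log2 scale with its standard error (horizontal axis), for each gene (panels) and for different kidneys used (vertical axis). The points lie below 0 in every panel, and those for set 1 alone, from -1.46 to -2.45, lie farther from 0 than those for set 2 alone, from -0.51 to -1.06.

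The genotype difference after UUO was smaller when WT 3820, or both it and 3818, was left out. Without WT 3820 it was -1.20 for Spp2, -1.12 for Ttr, -1.11 for Dnase1, -1.08 for Inmt, -0.87 for Slc13a3 and -0.84 for Miox. Without both 3818 and 3820 it was -1.15 for Dnase1, -1.07 for Spp2, -1.01 for Inmt, -0.97 for Ttr, -0.80 for Slc13a3 and -0.68 for Miox. Without WT 3819, the lowest WT kidney, it was farthest from 0 for Spp2 (-1.69) and Ttr (-1.50) among the kidneys left out one at a time.

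With the genotype held in the model, none of the 6 genes passed a test of set 2 against set 1 (limma, adjusted p between 0.587 and 0.992). The differences were 0.57 for Dnase1, 0.29 for Spp2, 0.17 for Inmt, 0.12 for Slc13a3, 0.02 for Ttr and -0.21 for Miox. No gene of the whole array was called, 0% in either direction, and 10.1% had an unadjusted p under 0.05. When both 3818 and 3820 were left out, WT 3819 alone stood for WT kidneys of set 1, and it is the lowest WT kidney for Spp2 and Dnase1. Spp2 was then 1.22 higher in set 2 and Dnase1 1.06 higher. No test is attached to these values, which rest on 1 WT kidney of set 1 and a choice made after seeing the data.

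The 6 genes varied together from kidney to kidney. Over the 16 kidneys, each taken as its deviation from the mean of its own group, the 15 pairs had a Pearson r between 0.54 (Dnase1 and Miox) and 0.93 (Inmt and Slc13a3), with a median of 0.85. Without 3818 and 3820 the range was 0.43 (Ttr and Inmt) to 0.96 (Dnase1 and Slc13a3), with a median of 0.75. In each kidney all 6 values come from 1 RNA preparation and 1 array, and no p is attached to these correlations.

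By that measure the genes most like Spp2 were Ces3 (r = 0.98), a carboxylesterase symbol that RefSeq now gives to more than 1 gene, and Thnsl2 (0.98). For Ttr they were the kallikrein Klk1 (0.95) and Cox5a (0.93), a subunit of cytochrome oxidase, whose log2 changes after UUO were small, -0.42 and -0.17. For Inmt they were the aminoacylase Acy3 (0.97) and the transporter Slc6a13 (0.96).
Dnase1 was most like Slc22a6 (0.94), which encodes the organic anion transporter OAT1, and AU018778 (0.93). Fbp1 was among the genes most like Slc13a3 (0.97). Miox was most like the ketohexokinase Khk (0.97) and Ttc36 (0.97), and the genes most like the median of the 6 included Fbp1 (1.00), the carbonic anhydrase Car4 (0.98), Cmbl (0.97) and Acy3 (0.97). All of these genes passed the test of a fall after UUO, the largest being that of Ces3, -2.70 (standard error 0.35, limma, adjusted p = 3.6e-05).

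The other genes of each pathway differed in how far they followed. Miox feeds the glucuronate and xylulose route, and of 14 measured genes of inositol and glucuronate handling 10 were lower after UUO and 0 higher, with a median of -0.43 where the median of all genes was -0.00. Khk was changed by -1.89 (limma, adjusted p = 3.3e-05), sorbitol dehydrogenase Sord by -1.62 (adjusted p = 2.0e-04) and the xylulose reductase Dcxr by -1.59 (adjusted p = 2.2e-04). The inositol transporter Slc5a11, which takes up the substrate of Miox, was changed by -1.23 (adjusted p = 5.3e-06), and Isyna1, which makes inositol, was at 0.33 and did not pass (adjusted p = 0.0581).

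Around Slc13a3, of 17 measured carriers of dicarboxylates, sulfate and citrate and enzymes of their substrates, 11 were lower and 0 higher, with a median of -0.53. The aminoacylases Acy3 and Acy1 changed by -2.09 (limma, adjusted p = 5.6e-05) and -1.69 (adjusted p = 1.8e-04), and the mitochondrial dicarboxylate carrier Slc25a10 by -1.36 (adjusted p = 7.8e-04). Slc13a2, the apical relative of Slc13a3, was at -0.84 and did not pass (adjusted p = 0.0504).

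Of 14 relatives of Inmt, the small-molecule methyltransferases and the enzymes of the methyl donor cycle, 5 were lower and 2 higher, with a median of -0.14. Gamt, which makes creatine, changed by -1.39 (limma, adjusted p = 5.3e-06) and the betaine methyltransferase Bhmt2 by -1.04 (adjusted p = 7.2e-04). Nnmt, which methylates nicotinamide and is the closest relative in the list, rose by 0.54 (adjusted p = 0.0059), and Pemt rose by 0.30 (adjusted p = 9.7e-04).

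Among 11 relatives of Spp2, 2 were lower and 3 higher. Cystatin B, Cstb, rose by 1.51 (limma, adjusted p = 9.1e-06), osteopontin, Spp1, by 1.35 (adjusted p = 1.5e-08) and the kininogen Kng2 by 0.81 (adjusted p = 4.5e-07), while Fetub changed by -0.13 (adjusted p = 0.0257) and Csta by -0.11 (adjusted p = 0.00282), both near the background. Of 13 genes of retinol and thyroid hormone handling around Ttr, 4 were lower and 2 higher. The deiodinase Dio1 changed by -0.89 (limma, adjusted p = 4.9e-05) and the thyroid hormone receptor Thra by -0.40 (adjusted p = 6.6e-07), and Rdh11, a retinol dehydrogenase, rose by 0.60 (adjusted p = 1.3e-05).
Of 10 nucleases beside Dnase1, only Dnase1l3 was lower, by a change of -0.16 (limma, adjusted p = 8.1e-04) near the background, from a mean of 6.98 in WT controls to 6.84 in WT kidneys after UUO, and Rnase4 and Rnaset2 rose by 0.59 (adjusted p = 0.0351) and 0.26 (adjusted p = 0.00399). For all genes, 2630 were lower and 2443 higher.

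**Figure D5:**
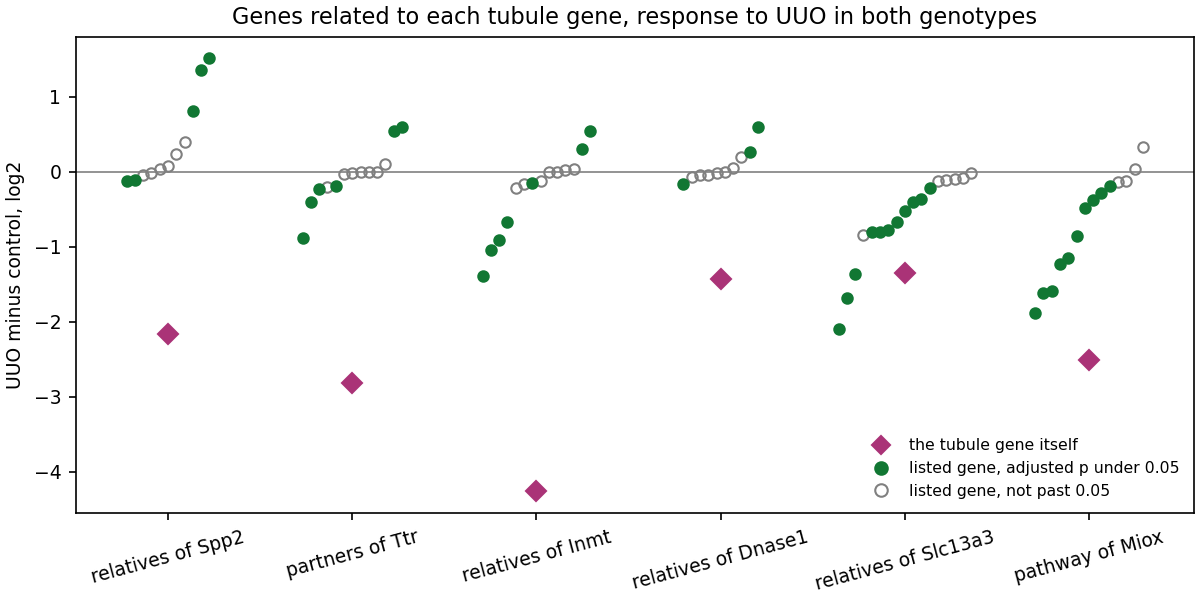
Log2 change after UUO over both genotypes (vertical axis) of each of the 6 genes (diamonds) and of the listed genes related to it (circles, filled where limma gave an adjusted p under 0.05). The diamond lies below every circle of its column for Spp2, Ttr, Inmt, Dnase1 and Miox, and within the column for Slc13a3, where Acy3 at -2.09, Acy1 at -1.69 and Slc25a10 at -1.36 lie lower.

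In a list of 14 measured genes of the proximal tubule, which shares no gene with the 6, 8 were lower after UUO and 0 higher, with a median of -0.70. Slc34a3, a phosphate carrier, changed by -1.77 (limma, adjusted p = 1.2e-05), Fbp1 by -1.17 (adjusted p = 6.8e-04) and the water channel Aqp1 by -0.97 (adjusted p = 0.00208), while Kap, an abundant androgen-controlled transcript, was at -0.08 and did not pass. After UUO, 12 of these 14 stood lower in IL-33 KO than in WT kidneys, with a median of -0.26, and -0.20 without 3818 and 3820, against 0.00 for all genes. The summed intensity of the list was 28599 to 55097 in WT and 22194 to 35935 in IL-33 KO kidneys after UUO, and 52494 to 55921 over the controls. Genes of the thick limb and distal tubule were lower after UUO as well (5 of 8). Their median genotype difference after UUO was -0.04, and 0.10 without 3818 and 3820, with 5 lower and 3 higher in IL-33 KO kidneys. Egf, which is made there, had the largest of these differences, -0.71, followed by Slc12a1 at -0.26. Its mean was 12.30 in the WT and 12.31 in the IL-33 KO controls. After UUO the mean of Egf was 8.15 in WT and 7.45 in IL-33 KO kidneys.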

How the data were processed

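Kidney RNA of 16 mice was measured on Illumina MouseRef-8 v2 BeadChips, and the labels gave genotype, treatment and set. The authors read the arrays with beadarray and deposited linear intensities for 18132 genes, and the submitters' processing notes name BeadStudio 2. How background was corrected, how arrays were normalized and how probes were joined into genes is not given in the sources used here. The deposited intensities ran from 95.5 to 23471 with array medians of 132 to 133, so they had been scaled, and no detection values were used. Precision is limited by how few kidneys each group has.

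After quantile normalization and log2, linear models were fitted in R 4.3.3 (limma 3.58.1, lmFit, then eBayes), and p-values were adjusted by Benjamini-Hochberg over every gene, with a threshold of 0.05. The 4 groups shared 1 model for the response to UUO and for control kidneys, and the 12 UUO kidneys gave the genotype difference, the set and their interaction. The study's threshold combined a fold above 1.3, an adjusted p of 0.25 and an unadjusted p of 0.05 as upper limits. Replicates are single kidneys. Exact two-sided permutation tests, correlations and plots used scipy 1.17.1, numpy 2.4.6, matplotlib 3.10.9 and pandas 2.3.3 under Python 3.11.15.

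The 6 genes and all gene lists were chosen with earlier results of these data known. Named genes were the 6, Il33, the 2 genes most correlated with each and the 5 with their median, and listed genes with the largest changes past the test, of which some are not reported here. Slc5a11, Isyna1, Slc13a2, Dcxr, Slc25a10, Kng2, Slc12a1 and the tubule genes were named after their values were seen. Code was tested on simulated data. Alternatives were other normalizations, filters, variance models and array weights, each set alone, and each kidney left out. Leaving out both 3818 and 3820 was added after seeing the data.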

Additional observations from a re-analysis of the deposited data

Results flagged for a closer look

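In the WT kidneys after UUO, single kidneys lay far from the others of the group on the log2 scale. In 3818 this held for Mup1 at 12.05 (the others 6.77 to 6.87), Apoa1 at 9.75 (6.93 to 7.02), Apoa2 at 10.71 (7.51 to 8.23), Ahsg at 9.36 (6.83 to 6.93), Trf at 10.17 (8.33 to 9.01) and Cps1 at 7.41 (6.79 to 6.95), all liver genes and all higher, and for Il33, lower at 8.39 (9.10 to 9.57). In 3820 it held for Havcr1, lower at 10.42 (12.84 to 13.95). Among the 6 tubule genes it held only for Inmt, which was at 9.19 in the IL-33 KO kidney 3899 and at 7.81 to 8.14 in the other 4. These are 9 of 28 groups searched over 14 genes, of which the liver genes were included because 3818 stood apart, and chance gives about 1 in 20.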

How the results depend on the processing

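The fall of the 6 genes after UUO over both genotypes kept its direction and its call under all 25 alternatives (largest adjusted p 0.0255 in limma), whereas the number of all genes called was 5073, and 3034 with set 1 of the UUO kidneys alone. In WT kidneys, 5 of the 6 were called with the brighter genes alone, 5 with a trend of the prior variance, 6 with array weights, 5 without 3818 and 3820, and 2 to 6 with single kidneys left out; all genes called were 2754, 1778 with WT arrays alone, and 799 to 3575 with single kidneys left out. For the IL-33 KO response 3955 genes were called, and 2281 to 4293 with single kidneys left out. At the study's threshold 2 genes differed by genotype after UUO, 168 among the brighter genes, 80 with array weights, 1 with the set as a block, 0 in set 1 alone, 81 in set 2 alone, 127 with 4 groups in one model, 43 without 3818 and 3820, and 1 to 307 with single kidneys left out (307 without WT 3819, 93 without IL-33 KO 3899, 31 without WT 3820); the 6 genes stayed lower in each. Between the sets, 0 genes were called, 1 among the brighter genes, 278 without 3818 and 3820 (2 of the 6) and 0 to 100 with single kidneys left out (100 without IL-33 KO 3822); the 6 genes gave 0 calls there. For set by genotype, single kidneys left out gave 0 to 666 genes. The cause was not tested.

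Small differences changed sign when single kidneys were left out. In control kidneys, Spp2 ranged from -0.17 to 0.12 and Inmt from -0.34 to 0.09. Between sets, Spp2 ranged from -0.02 to 0.75, Ttr from -0.26 to 0.35, Inmt from -0.07 to 0.45, Slc13a3 from -0.08 to 0.39 and Miox from -0.40 to 0.07, and Miox was 0.01 with array weights and 0.42 without 3818 and 3820. For set by genotype, Dnase1 ranged from -0.02 to 1.02, and without 3818 and 3820 the term was -0.30 for Ttr, -0.46 for Inmt, -0.43 for Dnase1 and -0.21 for Slc13a3. No paired analysis was possible because the kidneys' numbers are unique and shared by no groups. The background near 95 compresses changes of dim genes.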
